A study of Mus musculus with 204 samples.

Results

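The effect of a fat-rich diet on the colon was examined in 10 RNA sequencing libraries of male C57BL/6J mice, 5 diet-induced obese (DIO) and 5 lean; the other 194 libraries of the series came from other tissues. All genes with a mean level of 10 CPM (counts scaled to library depth) or more in these 10 libraries were taken, which gave 2222 of 13153 genes. DIO mice had been fed 60% fat for 10 weeks, and lean mice had chow with 13.1% fat. The diets also differed in carbohydrate, 20% in DIO and 62.4% in lean, and in protein, 20% in DIO and 24.5% in lean. The part of each nutrient was not tested. Both groups were wild type and male, with free access to food, and came as frozen pieces of tissue. The labels gave an age of 6 to 12 weeks on arrival and also a start of the fat diet at 4 weeks, and named 19 tissues where the samples held 21, so ages are not used here. The labels do not tie libraries to mice. The 5 libraries of a diet are separate samples, p-values measure the spread between them, and the same mice may have given the other tissues. Every DIO colon identifier preceded every lean one, so anything that changed along that order cannot be told apart from diet.

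The colon is lined by crypts in which stem cells divide near the base and give rise to absorptive colonocytes, mucus-making goblet cells, hormone cells and tuft cells. Colonocytes take up salt, water and short-chain fatty acids made by bacteria, and they burn fatty acids and make ketone bodies. Beneath the lining lie connective tissue, vessels, immune cells, nerve ganglia and layers of smooth muscle, and a piece of frozen bowel holds all of them. In such bulk samples fewer cells of a type and less RNA per cell cannot be told apart.

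Libraries held 9.88 to 24.8 M reads, of which 18.2% to 20.6% fell on the genes in the table. These lay on chromosomes 1, 2, 3 and X and part of chromosome 4. The 2222 genes had mean levels between 10.02 and 8673 CPM with a median of 41.4. The gene just inside the limit was A530020G20Rik at 10.02 CPM, and the gene just outside was Map2 at 9.98 CPM. CPM is not corrected for gene length, so levels are compared between libraries and not between genes.

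The markers fitted the labelled tissue. Car1, the carbonic anhydrase typical of large bowel, had the highest mean level of all genes tested, and the next was Pigr, the receptor that carries antibodies into the lumen. Pigr averaged 2623 ± 219 CPM in DIO and 3235 ± 412 CPM in lean colon (SD, n = 5 each). Atp1b1, a subunit of the sodium pump, averaged 1248 ± 136 CPM in DIO colon and 1182 ± 40.7 CPM in lean colon. Clca1, a goblet cell secretory protein, averaged 1334 ± 221 CPM in DIO and 1331 ± 328 CPM in lean colon. Of lists of other cells, none of 7 squamous, 4 pancreas, 6 B cell, 7 T cell or 3 mast cell genes in the table reached the level for testing. Pancreas genes summed to 0.821 to 2.75 CPM in DIO and 1.29 to 11.2 CPM in lean libraries.

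3 libraries stood apart before any comparison by diet. They were told by an index that sets 5 genes (Rpl39, Cops9, Atp5e, Ndufc1, Rpl22l1) against another 5 (Ncoa6, Ubap2l, Dynlrb1, Kantr, S100a1) as the difference of their average log2 values. It was below 0 in DIO 1 (-0.74), lean 2 (-0.95) and lean 4 (-1.31). In the other 7 libraries it lay between 1.01 and 1.47. The first principal component of the tested genes, with 33.1% of the variance, had its 3 lowest scores in these libraries. The second, with 26.1%, parted the diets: scores ran from -9.81 to -1.70 in DIO and from 0.22 to 9.86 in lean libraries. In the plot of library measures, smooth muscle genes summed to 4282 to 5447 CPM in DIO libraries and 2814 to 7083 CPM in lean libraries, with the highest sum in lean 4. Lean 2 was next among lean libraries at 5347 CPM. In the 7 libraries with an index above 0 the ranges did not overlap, at 4282 to 5447 CPM in DIO and 2814 to 3887 CPM in lean libraries. Colonocyte genes did the opposite there, at 9066 to 15658 CPM in DIO and 19208 to 21441 CPM in lean libraries. Car1 alone made up 44.3% to 64.3% of that sum, and without it DIO 5 (6834 CPM) and lean 3 (6849 CPM) nearly met. Passes are therefore also named below for 3 further fits: without the 3 libraries, with the index as a covariate, and with the log2 sum of the smooth muscle genes as a covariate.

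**Figure D1:**
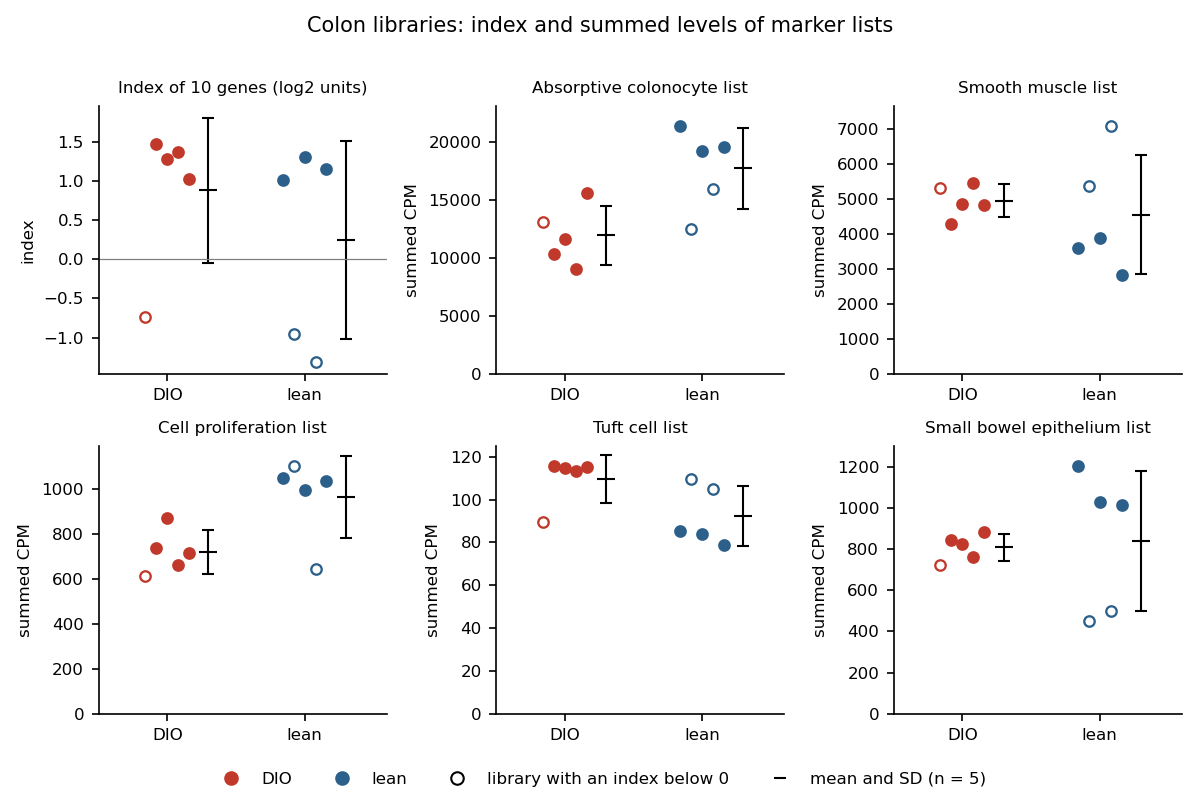
Index of 10 genes (log2 units) and summed CPM of marker lists in each colon library, DIO and lean, with the mean and SD of 5 libraries per diet. Open points are DIO 1, lean 2 and lean 4, whose index lay below 0. Among filled points the colonocyte, smooth muscle, proliferation, tuft and small bowel sums of DIO and lean libraries did not overlap. In the same libraries the ion transport, junction, interferon, macrophage, skeletal muscle, squamous and HoxD sums did not overlap either, and those of the remaining lists did. The ion transport list shares Car1 and Car2 with the colonocyte list. Car1 made up 4095 of its 8331 CPM in DIO 4 and 13135 of its 18215 CPM in lean 1.

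With all 10 libraries weighted alike, none of 2222 genes (0%) passed adjusted p 0.05 by limma, the linear model used throughout. At an unadjusted p under 0.05 there were 422 (19%), of which 234 were higher (10.5%) and 188 lower (8.46%) in DIO colon. On recovered reads edgeR called 2 genes (0.09%), both lower in DIO, namely Tpx2 and G6pdx, and DESeq2 called 163 (7.34%). The lowest adjusted p by limma was 0.0545, shared by Tpx2, G6pdx and Ints6l, and 57 genes lay under 0.1. In 100 genes (4.5%) every DIO library lay on 1 side of every lean library, with 43 higher (1.94%) and 57 lower (2.57%) in DIO. Without DIO 1, lean 2 and lean 4, limma called 201 of 2202 genes (9.13%), with 132 higher and 69 lower in DIO. With the index as a covariate it called 81 (3.65%), of which 59 were among those 201, and with the smooth muscle sum as a covariate 112 (5.04%). With weights that count libraries of wide spread less it called 530 (23.9%). With the index as a covariate many of the genes named below were tied just under the threshold. Sis, Mdm4, Firre, Car8, Vil1, Gstm1, Gstm3, Acsl3, Per2 and Slc6a14 all had the same adjusted p of 0.0498 by limma there. The median change of all 2222 genes was 0.03 on the log2 scale. Since none passed by limma with the 10 libraries weighted alike, genes are described as higher or lower by their values. A pass in a further fit without weights is named with the fit that gave it. Passes by DESeq2 and with array weights are counted here and not named gene by gene. A gene with no named pass may have passed there, as Col3a1, Dpt, Etfdh and Clca3b did in both.

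Of genes with groups that did not overlap and 50 CPM or more in the higher group, 13 were higher and 40 lower in DIO colon, and those with the largest log2 differences in each direction are named here. The largest increases were those of Sis, Mdm4, Firre and Ints6l. Sis, sucrase-isomaltase of the brush border, had 67.8, 119, 57.1, 61.7 and 77.4 CPM in DIO libraries, against 20.5, 37.4, 47.9, 36.9 and 40.1 CPM in lean libraries. DIO 2 was highest and lean 1 lowest. The log2 change was 1.05 ± 0.23 (SE; adjusted p = 0.0836 by limma), and 1.12 without the 3 libraries (adjusted p = 0.0403). Mdm4, an inhibitor of p53, had 129, 203.6, 189.7, 190.4 and 136 CPM in DIO libraries, against 104, 109.9, 87.2, 97.5 and 123 CPM in lean libraries. Its lowest DIO library was DIO 1 and its highest lean library was lean 5, and the change was 0.68 ± 0.14 (adjusted p = 0.0836). Firre, a long noncoding RNA of the X chromosome with a role in nuclear organisation, had 125, 156, 134, 152 and 111 CPM in DIO libraries, against 80.4, 93.4, 64.5, 78.6 and 108 CPM in lean libraries. DIO 5 and lean 5 nearly met. Ints6l, which resembles a subunit of the Integrator complex that processes noncoding RNA, had 51.8, 63.7, 62.5, 65.2 and 50.1 CPM in DIO libraries, against 32.5, 42.7, 30.5, 39.6 and 37.6 CPM in lean libraries. The log2 difference was 0.67 ± 0.12 (adjusted p = 0.0545), and passed without the 3 libraries (0.83, adjusted p = 0.0106). Car8, a carbonic anhydrase relative without the enzyme activity, averaged 163 ± 8.33 CPM in DIO and 114 ± 20.7 CPM in lean colon. Fbxo3, an F-box protein of a ubiquitin ligase, averaged 77.7 ± 4.65 CPM in DIO and 62.7 ± 2.83 CPM in lean colon. The other 3 named in this way were Dpt, described with the matrix genes, Cnih4 and Pdcd10, with log2 changes of 0.45, 0.30 and 0.28. Sis, Mdm4, Firre, Ints6l and Car8 passed in all 3 further fits, Fbxo3 with either covariate and Cnih4 with the index alone.

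Among genes of this kind that were lower in DIO colon, G6pdx had the lowest p. It encodes glucose-6-phosphate dehydrogenase, the first enzyme of the pentose phosphate pathway and a source of NADPH. It had 51.4, 47.5, 52.5, 46.3 and 61.7 CPM in DIO libraries, against 88.2, 70.1, 94.5, 73.2 and 80.1 CPM in lean libraries. Both DIO 1 and the low-index lean libraries lay with their diet, and the change was -0.63 ± 0.11 (adjusted p = 0.0545 by limma, 0.0287 by edgeR). Lmna, the gene of lamins A and C of the nuclear envelope, had 191, 141, 176, 188 and 203 CPM in DIO libraries, against 256, 270.2, 307, 229 and 259 CPM in lean libraries. DIO 2 stood lowest and lean 3 highest, with a change of -0.56 ± 0.11. Tagln2, an actin-binding protein, averaged 315 ± 54.2 CPM in DIO and 450.3 ± 56.9 CPM in lean colon. Trp53i11, a p53-inducible gene, averaged 86.7 ± 11.05 CPM in DIO and 123 ± 9.35 CPM in lean colon. Atic, which completes purine synthesis, had 48.7, 45.3, 59.8, 49.9 and 62.3 CPM in DIO libraries, against 70.9, 71.8, 77.9, 67.5 and 81.3 CPM in lean libraries, a change of -0.47 ± 0.10. Slc35c1, the Golgi carrier of GDP-fucose, averaged 203.9 ± 29.1 CPM in DIO and 273 ± 11.3 CPM in lean colon. Pigt, a subunit of the enzyme that attaches lipid anchors to proteins, averaged 141 ± 21.7 CPM in DIO and 190.0 ± 21.5 CPM in lean colon. Clca3b, of the family of calcium-activated chloride channel regulators, averaged 103 ± 29.7 CPM in DIO and 159.7 ± 40.8 CPM in lean colon, with lean 2 far above the other lean libraries. G6pdx, Lmna, Tagln2, Trp53i11, Atic, Slc35c1 and Pigt passed in all 3 further fits and Clca3b in none of them. Clca3b passed by DESeq2 (adjusted p = 0.0384) and by limma with array weights (adjusted p = 0.00547). Of the genes named here, G6pdx and Mdm4 passed in a fit of 40 libraries over colon, ileum, jejunum and duodenum (adjusted p = 0.0181 each), as did Firre (0.0489). That fit called 10 of 2137 genes (0.468%) for diet in colon.

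**Figure D2:**
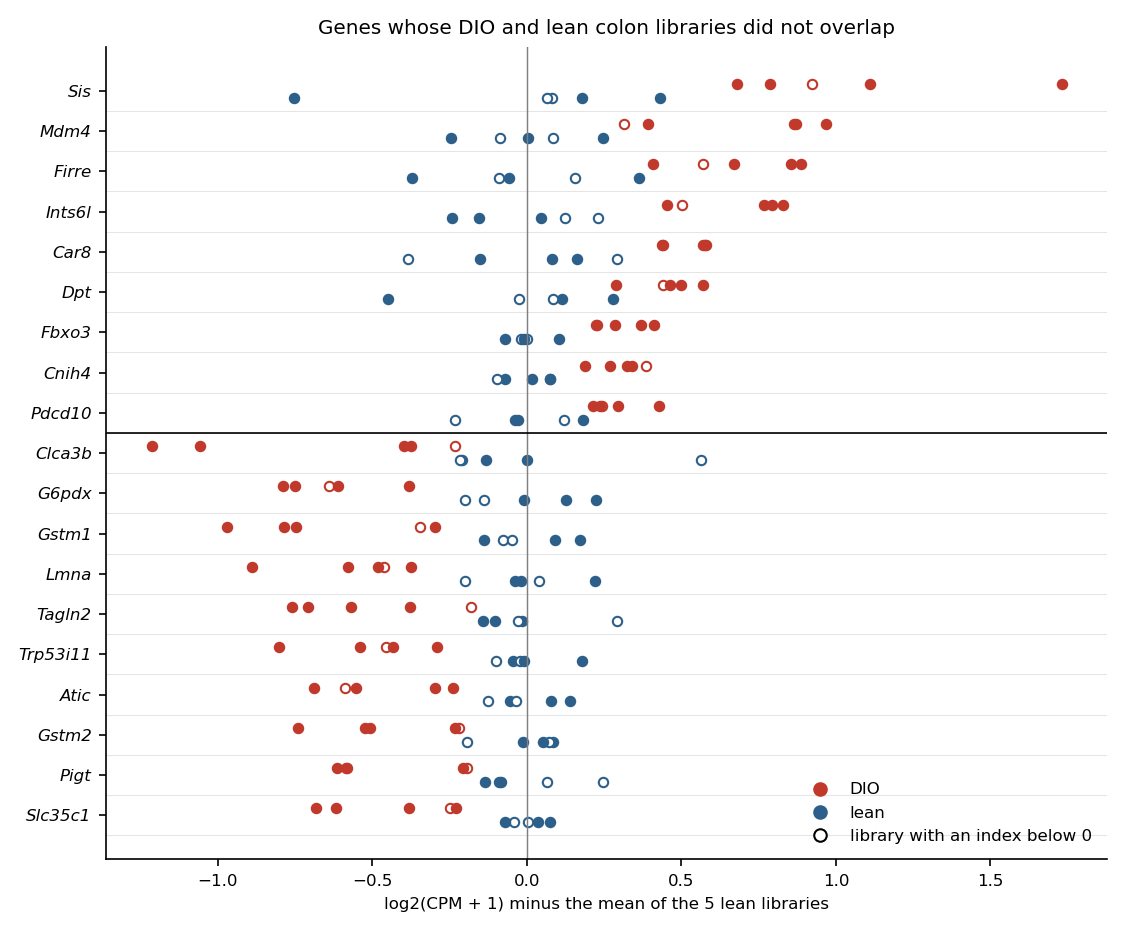
Levels of the named genes in each colon library as log2(CPM + 1) minus the mean of the 5 lean libraries, DIO above lean for each gene; genes above the line were higher and those below it lower in every DIO library. Open points mark DIO 1, lean 2 and lean 4; Sis spanned 57.1 to 119 CPM in DIO and 20.5 to 47.9 CPM in lean libraries, and Pdcd10 53.5 to 62.3 CPM in DIO and 39.0 to 52.3 CPM in lean libraries.

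Genes with groups that did not overlap were spread over all chromosomes in the table. On the X chromosome 10 were higher and 7 lower in DIO colon, which was 6.18% of 275 tested genes, and on chromosome 2, 9 were higher and 28 lower, or 4.71% of 786. On chromosomes 1 and 3 the shares were 3.99% and 4.03%. RefSeq promoters (GRCm38.p6, the 250 bases before the start) were given for 17 of the genes named above for their lack of overlap. They were searched on both strands for the E-box CACGTG, to which clock and growth factors of the basic helix-loop-helix class bind, and for the D-box (TTATGTAA and TTACGTAA), SRE (TCACNCCAC), DR1, NF-kB and ISRE motifs. The E-box was found in 2 promoters, those of Atic, which was lower in DIO colon, and Firre, which was higher, and none of the other motifs was found in the 17. Of 32851 mouse promoters of this length 6.02% held the E-box, 0.819% and 0.113% the D-box forms, 1.05% the SRE, 0.0335% DR1, 0.356% NF-kB and 0.685% ISRE. A match of letters is a description and not a site of binding. The sequences are shown 5′ to 3′ because these are the promoters in the set that held a searched motif, with the E-box in capitals; Atic lies at chr1:71556906-71557155 on the plus strand and Firre at chrX:50635322-50635571 on the minus strand.
Atic: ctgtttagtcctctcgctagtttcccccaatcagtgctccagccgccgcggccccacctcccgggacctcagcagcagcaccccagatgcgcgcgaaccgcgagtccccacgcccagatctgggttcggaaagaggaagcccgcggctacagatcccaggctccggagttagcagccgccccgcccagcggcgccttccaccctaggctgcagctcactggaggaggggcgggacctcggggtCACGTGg
Firre: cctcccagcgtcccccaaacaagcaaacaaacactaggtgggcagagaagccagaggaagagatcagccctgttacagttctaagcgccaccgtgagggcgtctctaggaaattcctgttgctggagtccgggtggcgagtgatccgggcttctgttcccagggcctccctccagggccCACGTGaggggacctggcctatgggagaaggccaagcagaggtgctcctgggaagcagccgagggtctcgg

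Genes of cell division were lower as a group in DIO colon. Of 28 tested proliferation genes 27 were lower in DIO, against 44.5% of all genes, and 17 were lower at an unadjusted p under 0.05, against 8.46% of all genes. Their median change was -0.45 on the log2 scale, where that of all genes was 0.03. Tpx2, which assembles the mitotic spindle, had 22.0, 25.9, 24.8, 19.9 and 25.2 CPM in DIO libraries, against 40.3, 52.0, 35.3, 33.6 and 39.4 CPM in lean libraries. The groups did not overlap, and the change was -0.73 ± 0.12 (adjusted p = 0.0545 by limma, 0.0287 by edgeR). Ube2c, the ubiquitin-conjugating enzyme of the anaphase-promoting complex, had 30.1, 28.0, 29.7, 28.5 and 32.4 CPM in DIO libraries, against 50.3, 56.7, 46.6, 33.0 and 49.5 CPM in lean libraries. The DIO libraries lay within a few CPM of each other, and lean 4 came close to them. Iqgap3, a scaffold protein of dividing cells, had 13.6, 13.6, 13.1, 12.1 and 14.7 CPM in DIO libraries, against 21.8, 26.6, 24.4, 14.5 and 25.2 CPM in lean libraries, where again lean 4 alone reached the DIO range. Mcm3, a subunit of the replicative helicase, had 19.6, 15.6, 28.0, 23.0 and 17.4 CPM in DIO libraries, against 35.5, 35.6, 38.2, 21.7 and 40.8 CPM in lean libraries. Lean 4 lay among the DIO libraries, and the change was -0.70 ± 0.18 (adjusted p = 0.09).

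Members of this list differed widely in log2 change, within mitosis and within DNA replication. Among genes of mitosis Nek2 (-0.71), Ect2 (-0.64), Cenpf (-0.62), Aspm (-0.59), Bub1b (-0.58) and Aurka (-0.58) lay at the low end, while Fam83d (-0.20), Nuf2 (-0.19), Smc4 (-0.12) and Plk4 (-0.11) lay nearer 0. Of genes of DNA replication, Mcm3 was at -0.70, Dtl at -0.54, Mcm6 at -0.38 ± 0.21 and Pcna, the sliding clamp, at -0.07 ± 0.19, with 72.7 CPM in DIO and 76.4 CPM in lean colon on average. Spc25, a kinetochore protein, was the one gene above 0 (0.09 ± 0.18), and lay at -0.024 with the index as a covariate, while Pcna lay at 0.056 with the smooth muscle sum. Without DIO 1, lean 2 and lean 4, 14 of the 28 passed adjusted p 0.05, all lower, against 3.13% of all genes, and the median change was -0.51. With the index as a covariate 8 passed (2.03% of all genes were lower and passed), and with the smooth muscle sum 4 did, with a median of -0.37 (2.12% of all genes). These 4 were Tpx2, Ube2c, Iqgap3 and Mcm3, which passed in all 3 of these fits. The summed level of the list was 612 to 872 CPM in DIO libraries and 646 to 1104 CPM in lean libraries. Its sum in lean 4, the library with the highest smooth muscle sum, was the lowest among lean libraries.

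**Figure D3:**
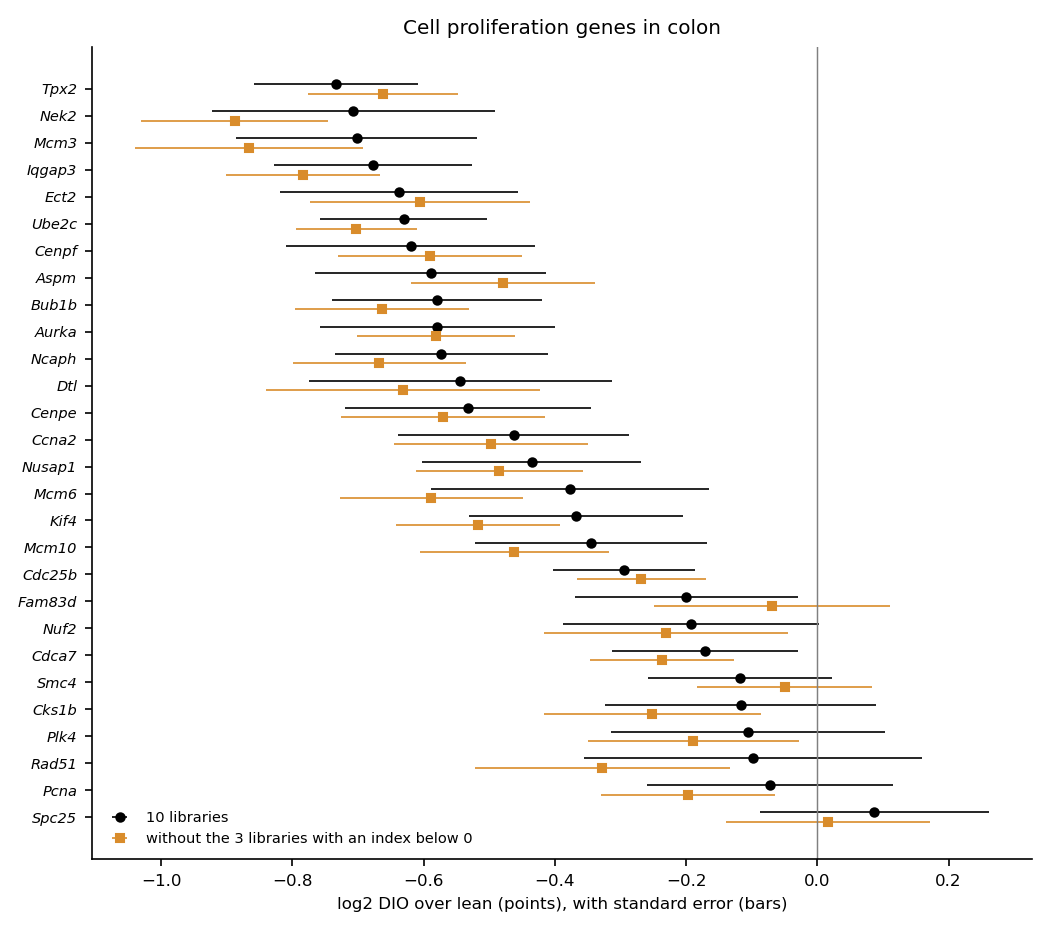
Log2 change (DIO over lean, with SE) of 28 cell proliferation genes in all 10 colon libraries (black) and without the 3 libraries with an index below 0 (orange). All but Spc25 lay below 0 in both fits; Tpx2 was at -0.73 and -0.66.

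Absorptive colonocyte genes were lower in part. Car1 had 8033, 4569.8, 6559, 4095 and 8824 CPM in DIO libraries, against 13135, 7175, 12359, 9797 and 12179.5 CPM in lean libraries. The groups overlapped through lean 2 alone, the change was -0.80 ± 0.27 (adjusted p = 0.138), and without the 3 libraries it was -1.13 (adjusted p = 0.0227). Clca4a, a marker of surface colonocytes, had 138, 17.4, 65.8, 42.2 and 88.0 CPM in DIO libraries, against 177, 68.9, 205, 124 and 338 CPM in lean libraries. It had the largest decrease of the list, -1.47 ± 0.50 (adjusted p = 0.142), and -2.31 without the 3 libraries (adjusted p = 0.0214). Vil1, the villin of brush border microvilli, averaged 538 ± 38.1 CPM in DIO and 682 ± 98.6 CPM in lean colon. Its log2 change was -0.33 ± 0.12 (adjusted p = 0.155), and passed with the index as a covariate (adjusted p = 0.0498) and without the 3 libraries (0.0227). Car2, a further carbonic anhydrase, averaged 522 ± 81.0 CPM in DIO and 633 ± 94.5 CPM in lean colon. Of 10 tested genes of the list 7 were lower (44.5% of all genes), 4 of them at an unadjusted p under 0.05 (8.46% of all genes). Without the 3 libraries 4 passed, all lower (3.13% of all genes). These were Car1, Clca4a, Vil1 and Fabp2, and Fabp2 is also a member of the small bowel list described next. With the smooth muscle sum as a covariate none of the 10 passed, and Car1 was at -0.72 (adjusted p = 0.0795).

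Some hydrolases and peptidases typical of small bowel were higher in DIO colon. Besides Sis, Enpep, aminopeptidase A, had 78.4, 96.3, 51.5, 52.1 and 100.4 CPM in DIO libraries, against 50.3, 35.5, 69.0, 51.6 and 44.8 CPM in lean libraries. DIO 3 and DIO 4 lay within the lean range, and the change was 0.56 ± 0.21 (adjusted p = 0.178). Xpnpep2, an aminopeptidase that cleaves before proline, averaged 19.2 ± 3.88 CPM in DIO and 14.3 ± 1.85 CPM in lean colon. Alpi, intestinal alkaline phosphatase, averaged 51.9 ± 8.66 CPM in DIO and 41.3 ± 12.4 CPM in lean colon, and its change was 0.01 without the 3 libraries. Of 6 tested genes of the small bowel list 4 were higher, against 55.5% of all genes, 3 of them at an unadjusted p under 0.05 (10.5% of all genes). The lower members were Cps1, at -0.25 ± 0.53, and Fabp2. The summed level of the list, most of which was Fabp2, an intracellular fatty acid carrier, went the other way in the 7 libraries with an index above 0, at 763 to 881 CPM in DIO and 1014 to 1205 CPM in lean libraries. Fabp2 was at -0.04 in all 10 libraries, at -0.52 without the 3 libraries (adjusted p = 0.0226) and at 0.19 with the smooth muscle sum as a covariate.

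**Figure D4:**
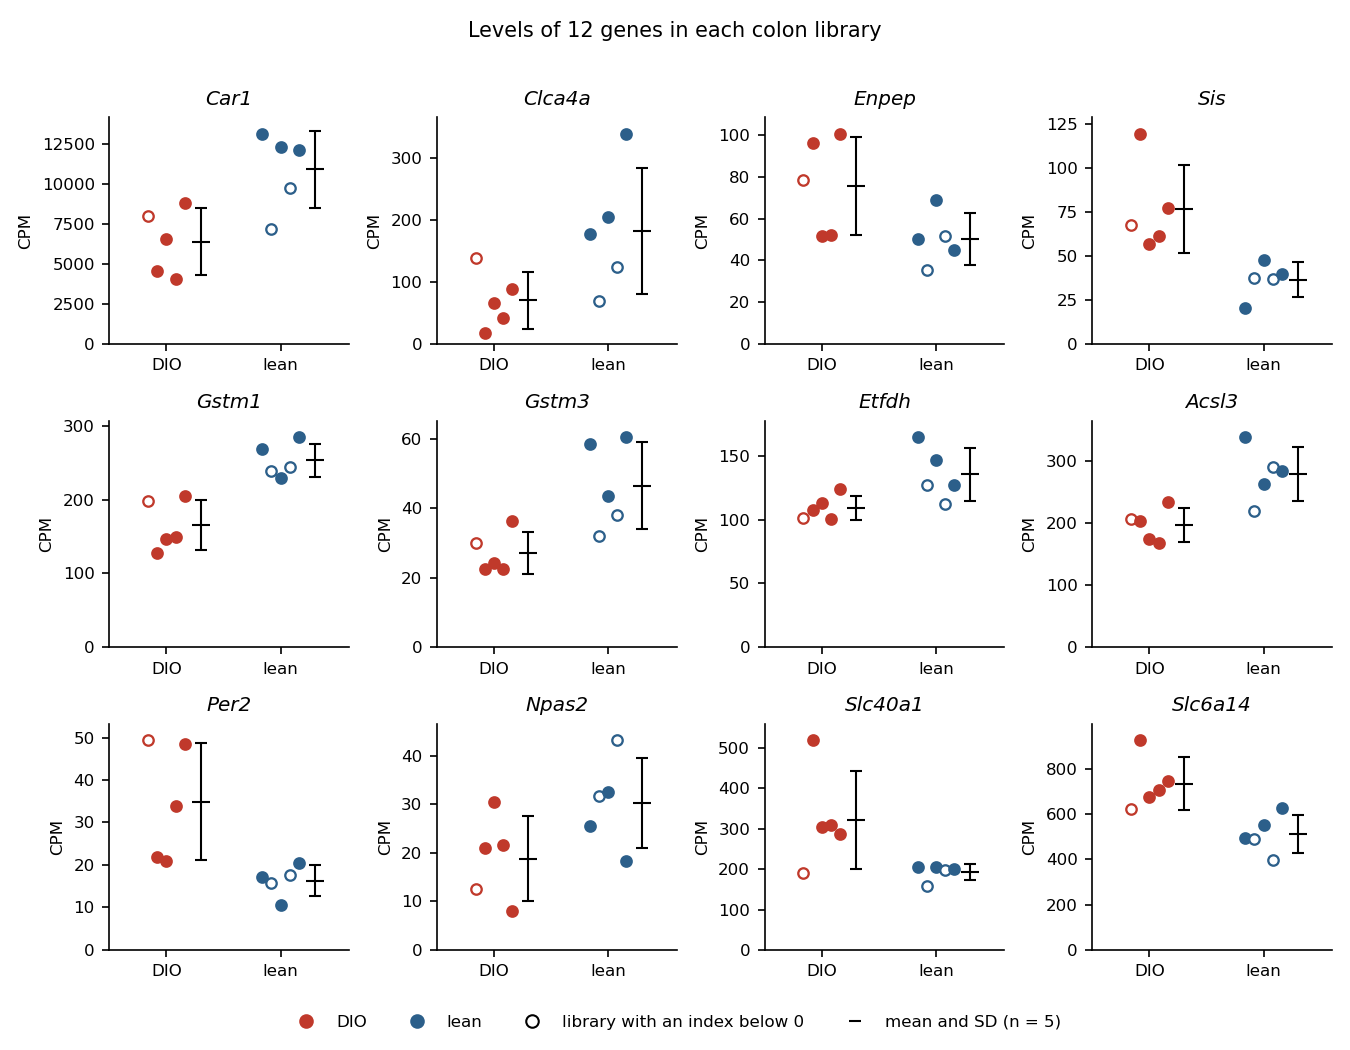
CPM of 12 genes in each colon library, DIO and lean, with mean and SD of 5 libraries per diet; open points are DIO 1, lean 2 and lean 4. Sis and Per2 were higher and Gstm1 lower in every DIO library, while Car1 overlapped through lean 2 (7175 CPM).

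Glutathione transferases of the mu class, which attach glutathione to reactive compounds and lie together on chromosome 3, were lower in DIO colon. Gstm1 had 198, 128, 146, 150.04 and 205 CPM in DIO libraries, against 269, 239, 229.5, 245 and 285 CPM in lean libraries. Gstm2 had 74.3, 51.4, 60.7, 59.9 and 73.5 CPM in DIO libraries, against 91.9, 91.1, 85.8, 75.6 and 89.7 CPM in lean libraries. In both genes the groups did not overlap, and DIO 1 and DIO 5 were nearest to the lean range. The changes were -0.63 ± 0.13 and -0.45 ± 0.11 (adjusted p = 0.0836 each). Gstm3 had 29.9, 22.5, 24.2, 22.4 and 36.3 CPM in DIO libraries, against 58.5, 31.9, 43.6, 38.0 and 60.4 CPM in lean libraries. DIO 5 lay above lean 2, and the change was -0.74 ± 0.19 (adjusted p = 0.0836). All 3 passed without the 3 libraries, at -0.74, -0.54 and -1.03 (adjusted p = 0.0226, 0.0241 and 0.0134). All 3 also passed with the smooth muscle sum as a covariate (adjusted p = 0.0304, 0.0483 and 0.0433), and Gstm1 and Gstm3 with the index (0.0498 each). Gstm4 passed without the 3 libraries (-0.50, adjusted p = 0.0259) and with the index (0.0498). Gstm4, Gstm7 and Gstm5 were at -0.33, -0.34 and -0.10, and since these genes are near copies of each other their counts are uncertain. Ugt1a7c, which attaches glucuronic acid, had 113 ± 30.2 CPM in DIO and 149.7 ± 15.3 CPM in lean colon. Of 13 tested detoxification genes 11 were lower (44.5% of all genes), 6 at an unadjusted p under 0.05 by limma (8.46% of all genes). Adh1 and Ugt1a1, at 0.07 and 0.09, were not lower, though Adh1 lay at -0.048 with the smooth muscle sum as a covariate.

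Fatty acid oxidation and ketone genes were not higher in DIO colon. Of 14 tested genes 11 were lower (44.5% of all genes) and 3 higher, with a median of -0.22. At an unadjusted p under 0.05 by limma, 4 were lower (8.46% of all genes). Acsl3, which activates long-chain fatty acids, had 206, 203.7, 175, 167 and 234 CPM in DIO libraries, against 339, 220.0, 264, 291 and 284 CPM in lean libraries. Only DIO 5 lay above the lowest lean library, lean 2, and the change was -0.50 ± 0.13 (adjusted p = 0.0836; 0.0259 without the 3 libraries, 0.0498 with the index as a covariate). Etfdh, which passes electrons from fatty acid oxidation to the respiratory chain, averaged 109 ± 9.69 CPM in DIO and 136 ± 20.6 CPM in lean colon, and Crat, carnitine acetyltransferase, averaged 73.7 ± 9.03 CPM in DIO and 86.0 ± 7.64 CPM in lean colon. Acadm and Hadh, enzymes of the oxidation cycle itself, were at 0.04 ± 0.10 and -0.03 ± 0.12, and turned to -0.078 without the 3 libraries (Acadm) and to 0.037 with the smooth muscle sum (Hadh). Genes of respiration were near the median of all genes: 11 of 16 were higher (55.5% of all genes) and 5 lower, with a median of 0.05. Cox7b, a subunit of cytochrome oxidase, averaged 445 ± 68.6 CPM in DIO and 343 ± 75.7 CPM in lean colon, while Ndufa10, a subunit of complex I, averaged 161 ± 19.9 CPM in DIO and 195 ± 28.1 CPM in lean colon. Cox7b passed with the smooth muscle sum as a covariate (0.50, adjusted p = 0.0397) and Ndufa10 without the 3 libraries (-0.40, adjusted p = 0.0465). Fatty acid and cholesterol synthesis genes were also near the median of all genes, with 5 of 9 higher (55.5% of all genes) and a median of 0.00. Among them Acss2, acetyl-CoA synthetase, was at -0.31, Insig2, a brake on sterol synthesis, at 0.22, Hsd17b7, of cholesterol synthesis, at 0.21 and Nr1h3, the liver X receptor alpha, at 0.19.

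4 genes of the circadian clock were tested. Per2, a repressor of the clock, had 49.4, 21.9, 21.0, 33.9 and 48.4 CPM in DIO libraries, against 17.1, 15.7, 10.5, 17.5 and 20.6 CPM in lean libraries. The groups did not overlap, though DIO 3 and lean 5 nearly met, and the change was 0.99 ± 0.25 (adjusted p = 0.0836). It passed with the index (adjusted p = 0.0498) and with the smooth muscle sum (0.0457) as a covariate, but not without the 3 libraries (0.0721). Npas2, an activator that acts in the opposite phase, had 12.5, 21.1, 30.6, 21.6 and 8.01 CPM in DIO libraries, against 25.6, 31.8, 32.5, 43.2 and 18.2 CPM in lean libraries. DIO 1 and DIO 5 were highest for Per2 and lowest for Npas2, and for Npas2 the other 3 DIO libraries lay within the lean range. Its change was -0.74 ± 0.31 (adjusted p = 0.213). Ciart, a further repressor, averaged 14.0 ± 7.66 CPM in DIO and 6.54 ± 3.49 CPM in lean colon, and Cry2 45.5 ± 10.2 CPM in DIO and 39.5 ± 6.93 CPM in lean colon. The hour at which each mouse was killed is not given in the sources used here, and its part in these values was not tested.

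Among ion carriers, Slc40a1, the iron exporter ferroportin, had 190.3, 519, 305, 309.6 and 286 CPM in DIO libraries, against 205, 159, 204.3, 197 and 201 CPM in lean libraries. DIO 1, of low index, lay within the lean range and the other 4 above it, with a change of 0.66 ± 0.20 (adjusted p = 0.122; 0.0328 without the 3 libraries). Slc30a10, an exporter of manganese, had 27.6, 65.8, 38.5, 19.7 and 77.2 CPM in DIO libraries, against 34.5, 8.83, 20.4, 46.3 and 7.97 CPM in lean libraries. The groups overlapped widely, and the change of 1.05 ± 0.48 did not pass in any of the fits named here (adjusted p = 0.257). The median over 13 tested ion transport genes was -0.01.

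Genes of mucosal defence moved both ways. Slc6a14, an amino acid carrier of the apical membrane that is raised in inflamed colon, had 620.0, 925, 674, 705 and 747 CPM in DIO libraries, against 495, 488, 551, 395 and 626 CPM in lean libraries. Only DIO 1 and lean 5 crossed, and the change was 0.52 ± 0.14 (adjusted p = 0.104; 0.0498 with the index and 0.0304 with the smooth muscle sum as a covariate, 0.0558 without the 3 libraries). Duox2, which makes hydrogen peroxide at the surface, had 65.1, 64.5, 73.6, 98.9 and 52.1 CPM in DIO libraries, against 83.9, 101, 92.0, 84.8 and 122 CPM in lean libraries. DIO 4 lay within the lean range, and the change was -0.46 ± 0.16 (adjusted p = 0.143). Tgm2, tissue transglutaminase, averaged 120.4 ± 20.3 CPM in DIO and 155 ± 37.2 CPM in lean colon, and passed with the smooth muscle sum as a covariate (-0.47, adjusted p = 0.0423). Pigr was at -0.30 ± 0.14. Of 9 tested interferon genes 6 were higher (55.5% of all genes) with a median of 0.08. Sp100, of nuclear bodies, had the lowest p of them, with 25.3 ± 2.47 CPM in DIO and 20.0 ± 5.39 CPM in lean colon. It passed by limma without the 3 libraries (0.60, adjusted p = 0.0227). Aim2, a sensor of DNA, averaged 60.2 ± 9.08 CPM in DIO and 51.3 ± 6.11 CPM in lean colon. Ifih1, which detects viral RNA, was at 0.08. All 3 tested macrophage genes were slightly higher (55.5% of all genes), though Mrc1 turned to -0.068 with array weights and Sirpa to -0.0061 by edgeR. Ctss, a lysosomal protease, averaged 291 ± 25.4 CPM in DIO and 255 ± 18.5 CPM in lean colon, Mrc1, the mannose receptor, 11.2 ± 2.53 CPM in DIO and 10.1 ± 1.23 CPM in lean colon, and Sirpa 22.8 ± 3.40 CPM in DIO and 22.3 ± 5.14 CPM in lean colon. The summed macrophage level was 338 to 381 CPM in DIO and 310.2 to 357 CPM in lean libraries. In the 7 libraries with an index above 0 it was 338 to 381 CPM in DIO and 310.2 to 326 CPM in lean libraries, without overlap. None of the 3 genes passed in any of the fits with 7 libraries or a covariate.

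Goblet and hormone cell genes lay on both sides of 0, and all 3 tested tuft cell genes were higher (55.5% of all genes). Of 8 goblet and mucin genes 6 were lower (44.5% of all genes) with a median of -0.10. B3gnt7, a sugar transferase of mucin chains, had 8.36, 4.78, 11.4, 8.48 and 3.92 CPM in DIO libraries, against 14.0, 20.2, 19.1, 9.12 and 12.7 CPM in lean libraries. DIO 3 alone lay above the lowest lean library, lean 4, and the change was -0.97 ± 0.27 (adjusted p = 0.113; 0.0499 without the 3 libraries). Creb3l1, a membrane-bound factor of secretory cells, averaged 221 ± 85.2 CPM in DIO and 327 ± 123 CPM in lean colon, and its 3 highest libraries were the 3 of low index; it passed without them (-0.39, adjusted p = 0.0328). C1galt1c1, a chaperone of mucin glycosylation, and Foxa2, a goblet cell factor, were at 0.20 and -0.22. Gcg, the precursor of glucagon-like peptide 1, averaged 90.0 ± 15.2 CPM in DIO and 77.0 ± 13.3 CPM in lean colon (0.22 ± 0.14, adjusted p = 0.423). The secretory granule genes Chgb, Resp18 and Ptprn were at -0.10, 0.21 and -0.20, and without the 3 libraries Resp18 passed at 0.66 (adjusted p = 0.0333) and Ptprn turned to 0.38 (adjusted p = 0.299). Tuft cell genes Ptgs1 and Dclk1 were at 0.28 and 0.08, with Dclk1 at -0.013 under the smooth muscle covariate, and Ptgs1 and Dclk1 passed without the 3 libraries (0.39 and 0.44, adjusted p = 0.0403 and 0.0465). The tuft cell list summed to 89.7 to 116 CPM in DIO and 78.7 to 109.7 CPM in lean libraries, and in the 7 libraries with an index above 0 to 113 to 116 CPM in DIO and 78.7 to 85.2 CPM in lean libraries, without overlap.

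Genes of the junctions that bind epithelial cells together were all below 0, 7 of 7 tested (44.5% of all genes) with a median of -0.13. Lad1, ladinin, of the anchoring of epithelium to its base, averaged 326 ± 56.6 CPM in DIO and 419 ± 25.6 CPM in lean colon (-0.37 ± 0.12, adjusted p = 0.129; 0.0349 without the 3 libraries). Cldn2, a claudin that forms pores, had 196, 176, 333, 142 and 155 CPM in DIO libraries, against 281, 319.8, 279, 325 and 163 CPM in lean libraries. DIO 3 and lean 5 each lay with the other diet. Cgn, cingulin, averaged 164 ± 6.69 CPM in DIO and 179 ± 9.25 CPM in lean colon, and Lamb3, a laminin chain, 139 ± 22.9 CPM in DIO and 158 ± 36.4 CPM in lean colon. Of 11 genes of secretion and the unfolded protein response 7 were lower (44.5% of all genes), with a median of -0.06. Among the 11, Atf6, a sensor of the response, was at -0.17 and Ssr2 and Ssr4, of the translocon, at -0.13 and 0.21.

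In the layers below the epithelium, matrix genes were mostly lower and muscle genes mostly higher. Of 11 matrix genes 10 were lower (44.5% of all genes) with a median of -0.30. None passed without the 3 libraries, where the median was -0.09. With the smooth muscle sum as a covariate the median was -0.43, and Col5a1, a minor fibrillar collagen, and Fn1, fibronectin, were lower and passed (adjusted p = 0.0304 and 0.0483; 2.12% of all genes). Col3a1, a fibrillar collagen, had 238, 225, 266, 239.6 and 312 CPM in DIO libraries, against 346, 361, 369, 342 and 256 CPM in lean libraries. Only lean 5 lay among the DIO libraries, and the change was -0.38 ± 0.12 (adjusted p = 0.136). Col5a1 and Col6a3 were at -0.38 and -0.35. Dpt, dermatopontin, which organises collagen fibres, was the exception, with 143, 128, 145, 156 and 149 CPM in DIO libraries, against 114, 103, 128, 111 and 76.6 CPM in lean libraries. The groups did not overlap, although DIO 2 and lean 3 nearly met, and the change was 0.45 ± 0.12 (adjusted p = 0.107). Of 13 smooth muscle genes 12 were higher (55.5% of all genes) with a median of 0.20. Without the 3 libraries the median was 0.54 and 6 passed, all higher (5.99% of all genes). The libraries left out include lean 4 and lean 2, with the highest lean smooth muscle sums (7083 and 5347 CPM, other lean libraries at most 3887 CPM). Leaving these out lowers the lean level, so the larger median there is not separate support. Fhl1, a LIM protein of muscle, had 287, 373, 335, 345 and 291 CPM in DIO libraries, against 205, 255, 262, 301 and 219.8 CPM in lean libraries. Lean 4 alone reached the DIO range, and the change was 0.40 ± 0.12 (adjusted p = 0.122). Synpo2, Dmd, the dystrophin gene, and Ppp1r12b, a regulator of myosin phosphatase, were at 0.36, 0.31 and 0.34, and in each lean 4 was the highest of all 10 libraries. Fhl1 and these 3 were among the 6 that passed without the 3 libraries. Whether pieces of bowel differed in their share of muscle was not tested apart from the sums given above.

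The neuron genes Snap25 and Stmn2 were at 0.41 ± 0.44 and 0.22 ± 0.36, and both had their highest level in lean 4, while L1cam was at -0.25 ± 0.14. Snap25 passed without the 3 libraries (1.21, adjusted p = 0.0227). Of the fat cell list, Pck1, Acss2 and Elovl6 were at -0.45, -0.31 and -0.08. Acss2 and Elovl6 are also members of the fatty acid and cholesterol synthesis list. Pck1 passed without the 3 libraries (-0.60, adjusted p = 0.0259) and with the index as a covariate (adjusted p = 0.0478). Whether the pieces differed in their share of fat tissue was not tested. Fabp4, the fat cell carrier of fatty acids, lay at 31.1 to 144 CPM in DIO libraries and 44.7 to 737 CPM in lean libraries, where lean 3 held 737 CPM and the other 4 at most 139 CPM. The endothelial genes Eng, Egfl7, Emcn and S1pr1 were at -0.47, 0.24, -0.10 and -0.01, and Eng passed with the smooth muscle sum as a covariate (-0.63, adjusted p = 0.0304). Tnni1, the only skeletal muscle gene of 7 at a level to be tested, averaged 12.5 ± 1.71 CPM in DIO and 15.3 ± 2.67 CPM in lean colon. The skeletal muscle list summed to at most 15.8 CPM in DIO and 20.9 CPM in lean libraries. Hoxd8 and Hoxd10, which mark the position along the gut, were at 0.26 and 0.25. The list of HoxD genes summed to 38.6 to 44.3 CPM in DIO and 29.6 to 45.8 CPM in lean libraries. In the 7 libraries with an index above 0 the sums were 41.3 to 44.3 CPM in DIO and 29.6 to 38.9 CPM in lean libraries, without overlap. Whether the pieces of bowel differed in position was not tested.

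The diet effect in colon was set beside that in small bowel in the fit of 40 libraries. None of 2137 genes (0%) had a diet effect that differed between colon and ileum at adjusted p 0.05 by limma; 231 (10.8%) did at an unadjusted p under 0.05. Between colon and jejunum 37 genes (1.73%) differed, and 294 (13.8%) did at an unadjusted p under 0.05. The 2 comparisons share the colon libraries. In the same fit 450 genes (21.1%) passed for diet in jejunum, 3 (0.14%) in ileum and 10 in colon, and these counts alone do not show that the segments differ.

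Genes of fat use were among those whose change differed between colon and jejunum. Acadl, long-chain acyl-CoA dehydrogenase, averaged 304 ± 49.5 CPM in DIO and 100.2 ± 24.9 CPM in lean jejunum, but 157 ± 10.3 CPM in DIO and 185 ± 26.0 CPM in lean colon, and the difference of the changes was -1.83 ± 0.22 (adjusted p = 4.33e-07). In colon Acadl passed without the 3 libraries (-0.36, adjusted p = 0.0499). Acsl3 averaged 60.9 ± 15.4 CPM in DIO and 35.8 ± 4.77 CPM in lean jejunum, and the difference was -1.22 ± 0.25 (adjusted p = 0.00375). Bbox1, which makes carnitine, averaged 51.5 ± 20.5 CPM in DIO and 2.65 ± 1.26 CPM in lean jejunum. It lay below 1 CPM in every colon library, at 0.358 ± 0.204 CPM in DIO and 0.310 ± 0.141 CPM in lean colon, and the difference of the changes was -3.77 ± 0.37 (adjusted p = 8.83e-09). Lamb3 averaged 90.8 ± 24.3 CPM in DIO and 15.9 ± 7.41 CPM in lean jejunum, with a difference of -2.71 ± 0.40 (adjusted p = 3.79e-05). Mfsd4a averaged 8.26 ± 2.89 CPM in DIO and 38.8 ± 5.77 CPM in lean jejunum, against 83.2 ± 3.89 CPM in DIO and 82.4 ± 14.4 CPM in lean colon (difference 2.17 ± 0.26, adjusted p = 4.33e-07). Mptx2, a pentraxin of Paneth cells, which colon lacks, had no read in any DIO colon library and at most 0.121 CPM in lean colon. Bbox1 and Mptx2 were tested only because of their levels in small bowel, so their differences from colon are changes in small bowel. Gpr39, a receptor that senses zinc, averaged 12.7 ± 1.49 CPM in DIO and 17.01 ± 2.22 CPM in lean colon, without overlap, and 9.71 ± 2.78 CPM in DIO and 6.60 ± 1.09 CPM in lean ileum; the difference of colon minus ileum was -0.87 ± 0.21 (adjusted p = 0.0891), and Gpr39 passed in colon without the 3 libraries (-0.51, adjusted p = 0.0465). Sis, higher in DIO colon, fell by 0.90 in DIO jejunum (adjusted p = 0.0263), and the changes differed by 1.94 ± 0.41 (adjusted p = 0.00512). Tpx2 and Ube2c were lower in both segments, at -0.73 and -0.63 in colon and -0.74 and -0.87 in jejunum, and G6pdx was at -0.63 in colon and -0.66 in jejunum. In ileum Tpx2, Ube2c and G6pdx were at 0.21, 0.26 and -0.06. The differences of colon minus ileum were -0.94 ± 0.36, -0.90 ± 0.33 and -0.58 ± 0.19 (unadjusted p = 0.0129, 0.0103 and 0.00383), and none passed the adjustment by limma (adjusted p = 0.314, 0.301 and 0.264).

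**Figure D5:**
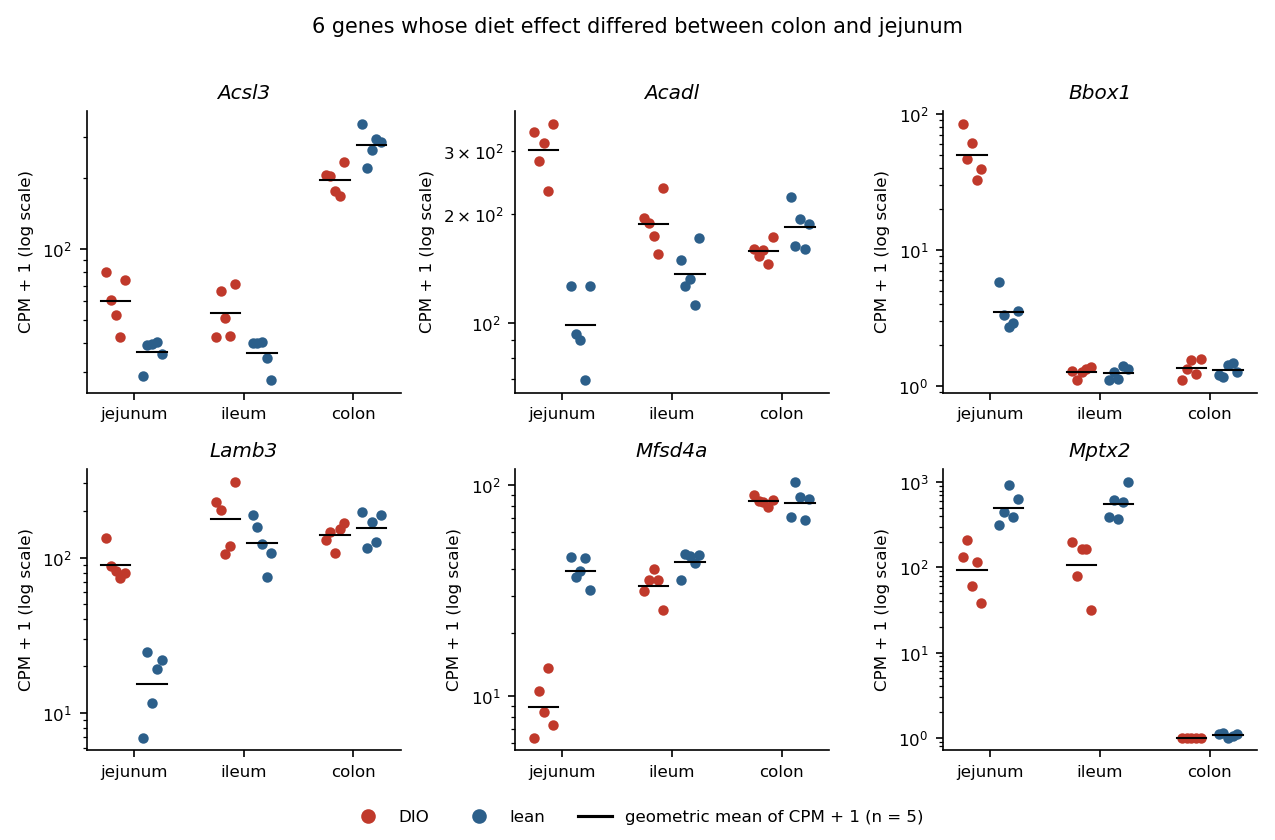
CPM + 1 (log scale) of 6 genes in each library of jejunum, ileum and colon, DIO and lean, with geometric means of 5 libraries. Acsl3 and Acadl had higher means in DIO than in lean jejunum and ileum but lower means in DIO than in lean colon; Bbox1 and Mptx2 were near 0 CPM in colon.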

How the data were processed

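RNA from frozen colon was sequenced after poly(A) selection with a stranded TruSeq kit as paired reads of 100 nt, per the labels' protocols. The authors deposited CPM per gene in 1 table; FastQC, STAR, HTSeq and DESeq2 are named per the submitters' processing notes, and the sources used here give neither their versions nor the genome build. The table's 13153 complete genes cover 23.7% of annotated genes, 13139 identifiers matched a symbol and 14 did not, 1 gene with missing values was left out, and 1 further column, of no listed sample, was set aside. All values (100%) were whole reads within 0.001 read after scaling, and on these reads edgeR's quasi-likelihood test called 2 genes and DESeq2 163.

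Genes averaging 10 CPM or more were tested as log2(CPM + 1) with limma (trend, Benjamini-Hochberg adjustment, threshold 0.05), so fold changes of low genes are understated. Diet by segment differences came from 1 fit of 40 libraries of colon, ileum, jejunum and duodenum. Tools were R 4.3.3, limma 3.58.1, edgeR 4.0.16 and DESeq2 1.42.0, and the fits were tested on simulated data. Alternatives were the pseudocount, the filter, rescaling, array weights, a fit of all tissues, the count tools, the index as a covariate and leaving out each library. The fit without 3 libraries, the smooth muscle covariate and a threshold of 0.1 were chosen after seeing the data. Named genes were those with no overlap between diets that averaged 50 CPM or more in 1 diet (the 10 largest differences each way), up to 4 per list by unadjusted p, the 6 of highest level, and the 4 with the lowest p for each segment difference; further list members were named after their values were seen, and some results are not reported here. The members and lists were chosen with earlier results of these data known. No pair of libraries agreed within sampling noise (chi-square per degree of freedom at least 8.22). Lists gave counts and medians only.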

Additional observations from a re-analysis of the deposited data

Results flagged for a closer look

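Within a diet, 15 of 216 groups of 5 libraries held a library far from the others, where chance gives about 1 in 20. In lean colon, lean 2 was high for Clca3b (231 CPM, others 134 to 156), Tagln2 (548 CPM, others 406 to 443) and Chgb (514.5 CPM, others 294 to 356), and low for Slc40a1 (159 CPM, others 197 to 205). Lean 4 was high for Stmn2 (61.1 CPM, others 14.2 to 25.1) and Hoxd10 (15.2 CPM, others 6.73 to 9.01) and low for Mcm3 (21.7 CPM, others 35.5 to 40.8). Lean 3 was high for Fabp4 (737 CPM, others 44.7 to 139). Lean 5 was low for Col3a1 (256 CPM, others 342 to 369) and Cldn2 (163 CPM, others 279 to 325) and high for Cry2 (51.7 CPM, others 35.3 to 37.7). In DIO colon, DIO 1 was high for Creb3l1 (372 CPM, others 166 to 201), DIO 5 for Stmn2 (51.0 CPM, others 19.6 to 26.9) and Acss2 (103 CPM, others 69.3 to 79.0), and DIO 3 for Cldn2 (333 CPM, others 142 to 196).

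The diet effect differed between colon and jejunum, by the limma interaction on the log2 scale, for the genes given here. Colon minus jejunum was -3.77 for Bbox1 (adjusted p = 8.83e-09), -2.71 for Lamb3 (3.79e-05), -1.83 for Acadl (4.33e-07), -1.41 for Ugt1a7c (0.0184) and -1.22 for Acsl3 (0.00375). It was 2.31 for Mptx2 (0.0145), 2.17 for Mfsd4a (4.33e-07) and 1.94 for Sis (0.00512). Bbox1 averaged 0.358 CPM in DIO and 0.310 CPM in lean colon, and Mptx2 averaged 0 and 0.077 CPM there. Both were tested only because of their levels in small bowel, so their differences are the changes in jejunum and say nothing about diet in colon.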

How the results depend on the processing

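No gene passed with all colon libraries weighted alike, nor with a pseudocount of 5, without a filter or with a filter at 1 CPM. Calls numbered 2 after rescaling, 530 with array weights, 9 in the fit of all tissues, 2 by edgeR, 163 by DESeq2, 81 with the index covariate, 201 without the 3 libraries, 112 with the smooth muscle covariate and 57 at a threshold of 0.1. Leaving out 1 library gave 0 to 16 calls, with 16 without DIO 5 or without lean 4, 2 without DIO 1 and 1 without DIO 3. Genes with no overlap, 100 in all, numbered 115 after rescaling and 102 to 237 with 1 library left out, with 237 without DIO 1, 201 without DIO 5, 171 without lean 4, 160 without lean 2 and 152 without lean 5. Counts with 1 library left out could not fall below 100, because removing a library cannot make separate groups overlap. Colon minus ileum gave 1 call with the filter at 1 CPM, 250 with array weights and 0 otherwise, also with any library left out. Colon minus jejunum gave 37 calls, 169 with array weights and 25 to 46 with 1 library left out. Of the 81 calls with the index covariate, 80 had the same sign without it.

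Of the genes named by the rule, the log2 changes of 11 turned in sign under an alternative, none of them past the threshold there. With 1 library left out, Chgb ran from -0.168 to 0.034, Ptprn from -0.39 to 0.13, Dclk1 from -0.0012 to 0.20, Stmn2 from -0.0028 to 0.57, Elovl6 from -0.14 to 0.021, Sirpa from -0.073 to 0.14, Emcn from -0.23 to 0.038, S1pr1 from -0.21 to 0.16, Clca1 from -0.10 to 0.14 and Mfsd4a from -0.038 to 0.11. With array weights Ptprn was at 0.095 and Mrc1 at -0.068. With the index covariate Ptprn was at 0.032, Emcn at 0.019, S1pr1 at 0.18 and Clca1 at -0.016. Without the 3 libraries Ptprn was at 0.38, Emcn at 0.15 and S1pr1 at 0.23. With the smooth muscle covariate Dclk1 was at -0.013, Stmn2 at -0.042 and Sirpa at -0.069. By edgeR and by DESeq2, Sirpa was at -0.0061 and -0.0015, Clca1 at -0.017 and -0.013, and Mfsd4a at -0.0059 and -0.0025. Of further list members whose change is given in the text, compared only in the fits with array weights, with a covariate or without the 3 libraries, 6 turned, none past the threshold there: Acadm (0.040) was at -0.019 with array weights, -0.031 with the index covariate and -0.078 without the 3 libraries, Spc25 (0.087) at -0.024 with the index covariate, and with the smooth muscle covariate Pcna (-0.072) was at 0.056, Adh1 (0.071) at -0.048, Hadh (-0.025) at 0.037 and Fabp2 (-0.042) at 0.19. The cause was not tested in any case. No paired analysis was possible because replicate numbers follow sample order only and the labels tie no DIO library to a lean one.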
